A study of Mus musculus with 6 samples.

Results

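The genes described here are 10 genes of hepatic glucose output, glycogen storage and insulin signalling: the insulin receptor substrates Irs1 and Irs2, the transcription factor Foxo1, the coactivator Ppargc1a, the gluconeogenic enzymes Pcx, Pck1, Fbp1 and G6pc, and the glycogen enzymes Gys2 and Pygl. They were taken by their symbol in the platform annotation, and all 10 were found among the 12393 genes of the array, on 22 rows of the value table. Of these rows, 18 entered the fit, and 4 control rows of Pcx did not. Livers came from male C57BL/6J mice that drank source water for 90 d, or distilled water over the same period as the control. No genotype, age, feeding state or hour of collection was given in the labels. Each group had 10 mice, of which 9 gave livers, and 3 livers were pooled for each array, so that there were 3 source water arrays and 3 control arrays. A replicate is therefore a pool, and its spread is smaller than that of single animals.

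In the fed liver, insulin binds its receptor, the receptor phosphorylates IRS1 and IRS2, and the kinase AKT is activated through phosphatidylinositol 3-kinase. AKT keeps FOXO1 out of the nucleus and favours glycogen synthesis. In fasting, glucagon acts through cyclic AMP and CREB, which induces Ppargc1a, and FOXO1 and the protein PGC-1alpha together raise transcription of Pck1 and G6pc, while glycogen phosphorylase releases glucose units from glycogen.

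Pck1 and G6pc are the textbook targets of this circuit, and their promoters are shown because their mean signals differed in opposite directions between the groups. Neither difference passed the test given below, and no link between sequence and signal was tested. The sequences are RefSeq promoters of build GRCm38.p6, each running from 250 bases before to 50 bases after an annotated transcript start. Entries were found for 9 of the 10 genes. For Ppargc1a and the second Pcx entry, that start lies far inside the gene's span (chr5:51454249-52115853 and chr19:4510472-4621752). The Pck1 promoter lies at chr2:173152823-173153122 on the plus strand and the G6pc promoter at chr11:101367466-101367765 on the plus strand. Capitals mark matches to the searched letters.
Pck1: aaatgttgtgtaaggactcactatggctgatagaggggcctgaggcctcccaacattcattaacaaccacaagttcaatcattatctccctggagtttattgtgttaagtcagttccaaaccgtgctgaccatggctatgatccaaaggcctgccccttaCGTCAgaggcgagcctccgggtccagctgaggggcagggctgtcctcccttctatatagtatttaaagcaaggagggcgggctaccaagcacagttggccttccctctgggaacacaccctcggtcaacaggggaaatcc
G6pc: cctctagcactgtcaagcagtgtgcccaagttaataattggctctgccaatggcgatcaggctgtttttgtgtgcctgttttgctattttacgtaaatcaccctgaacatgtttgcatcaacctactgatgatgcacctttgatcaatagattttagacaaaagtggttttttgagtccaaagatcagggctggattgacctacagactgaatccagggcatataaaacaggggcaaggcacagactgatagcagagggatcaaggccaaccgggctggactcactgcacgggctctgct

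The letters searched, on both strands, were TGTTTAC for a FOXO-type element, TGACGTCA for a cyclic AMP response element, its first 5 bases TGACG, which the longer letters contain, and CACGTG for an E-box. TGTTTAC was found in 0 of 10 promoters of these genes (Pcx had a pair of entries), against 3.65% of all 32851 promoters, and TGACGTCA in 0 of 10, against 1.79%. Only exact matches were counted, so elements that vary from these letters were missed. A count of 0 therefore does not mean that a promoter lacks a FOXO site or a cyclic AMP response element. TGACG was found in 4, those of Irs1, Pck1, Ppargc1a and Pygl, against 20.8% of all promoters, and CACGTG in 3, those of Irs1, Irs2 and Pcx, against 7.15%. In Pck1 the match began 90 bases before the start, on the minus strand, so that the printed strand reads CGTCA. The stretches around the matches in the promoters of the insulin receptor substrates and of Ppargc1a are given for comparison, all from the minus strand of the same build. They lie at chr1:82291522-82291581 for Irs1, where an E-box overlaps the shorter match, at chr8:11008941-11009000 for Irs2, and at chr5:51567743-51567801 for Ppargc1a. The choice of these promoters was made after the values were seen.
Irs1: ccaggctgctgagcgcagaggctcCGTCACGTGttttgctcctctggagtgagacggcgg
Irs2: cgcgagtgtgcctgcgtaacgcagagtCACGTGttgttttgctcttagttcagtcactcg
Ppargc1a: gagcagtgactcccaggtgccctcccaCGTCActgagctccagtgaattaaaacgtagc

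None of the 10 genes passed the test. Source water was compared with control over all 22626 probe sets with limma, a moderated linear model, and p-values were adjusted by the Benjamini-Hochberg method over all of them. Values are deposited log2 signals, and a difference is source water minus control on that scale, with the moderated standard error (SE) or its 95% interval. Each gene is given by its probe set with the highest mean signal. At an adjusted p under 0.05, 0 of the 10 genes were called, against 0.0323% of all genes, and their adjusted p-values lay between 0.818 and 0.999. At an unadjusted p under 0.05 there was 1, Gys2, on the lower side, against 6.76% of all genes (4.16% higher and 2.6% lower). At that p together with a difference of at least 1.5-fold there were 0, against 1.74% of all genes. The groups overlapped in all 18 probe sets of the 10 genes, while they did not overlap in 11.5% of all genes. By sign of the mean, 5 genes were higher and 5 lower, with a median difference of -0.08, and all genes had a median of -0.00. Beside these background shares, the counts of the 10 genes are not a result about them.

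**Figure D1:**
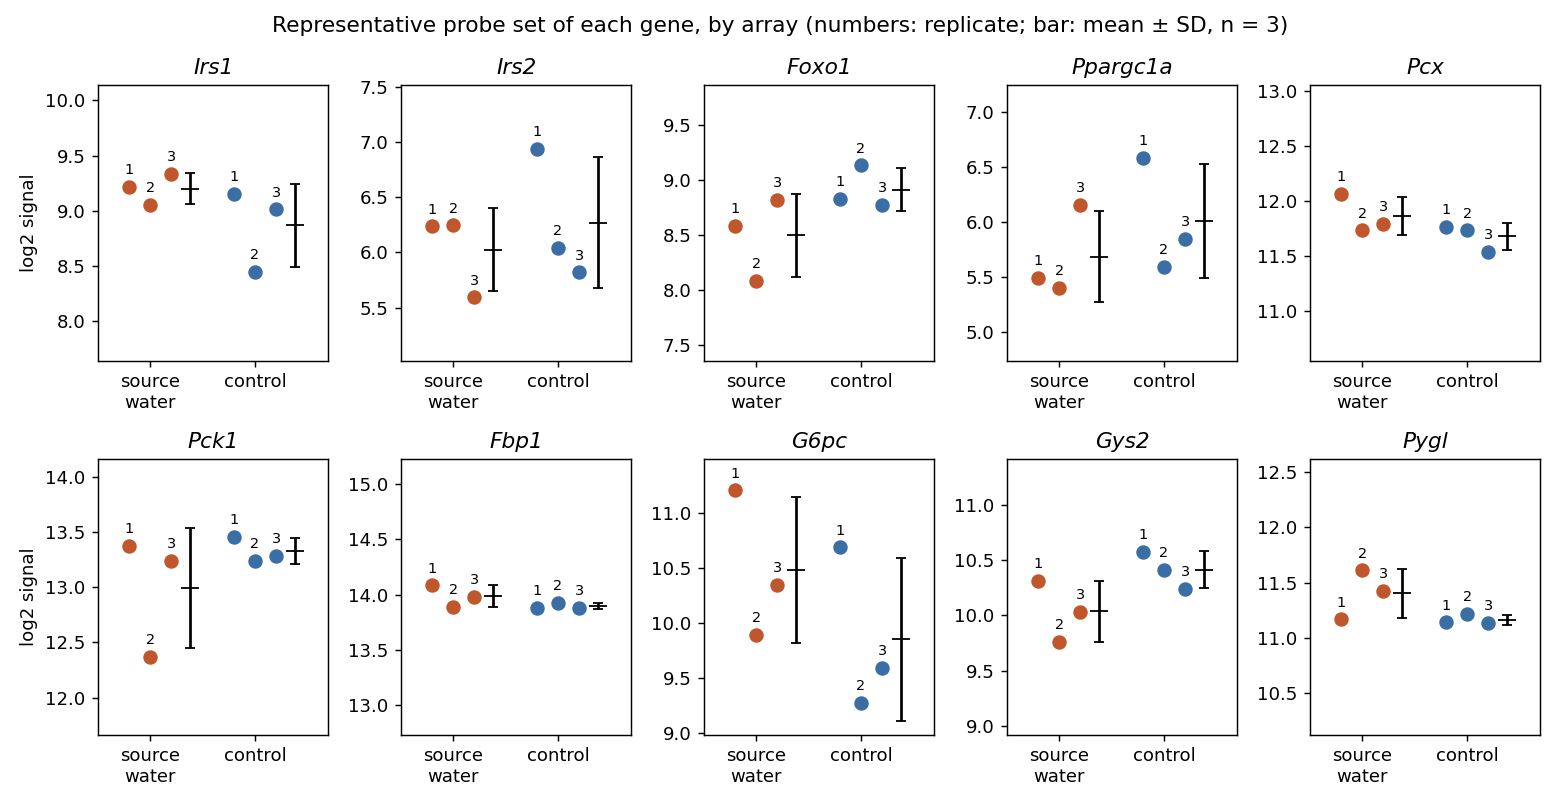
Log2 signal of the representative probe set of each of the 10 genes in the 3 source water arrays (left) and the 3 control arrays (right). Numbers give the replicate, bars the mean ± SD, and each panel spans the same height of 2.5 log2 units. The groups overlap in every panel, and G6pc has the widest spread within a group while Fbp1 has the narrowest.

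**Figure D2:**
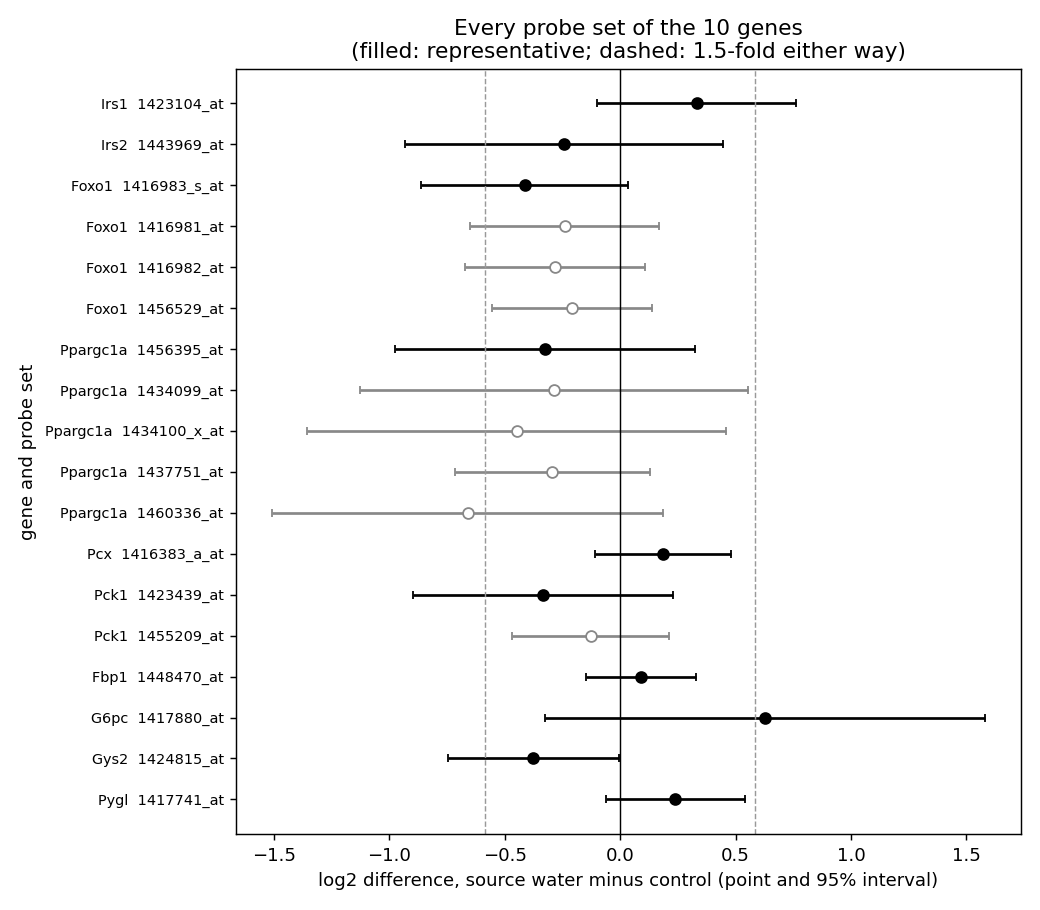
Log2 difference, source water minus control, for all 18 probe sets of the 10 genes, with 95% intervals from limma. Filled points are the representative probe sets and dashed lines mark 1.5-fold in either direction. Among representative probe sets, the intervals of Pcx, Fbp1 and Pygl stay within the dashed lines, and that of Gys2 ends just below 0.

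Irs1 and Irs2 encode the docking proteins that pass the signal from the insulin receptor on to phosphatidylinositol 3-kinase. Irs1 had log2 signals of 9.21, 9.05 and 9.34 in source water replicates 1 to 3, and 9.15, 8.44 and 9.01 in the control replicates. All source water arrays lay close together, and control replicate 2 was the array that stood low. The difference was 0.33 ± 0.19 (SE; limma adjusted p = 0.959), and 0.12 without control replicate 2. Without control replicate 1 it was 0.47. Irs2, whose transcription is known to be raised by FOXO1 in fasting, had 6.23, 6.25 and 5.59 in source water, against 6.94, 6.04 and 5.82 in control. Control replicate 1 was the highest array and source water replicate 3 the lowest. The difference was -0.24 ± 0.30 (SE; limma adjusted p = 0.999), and it became 0.09 without control replicate 1, so its sign rested on that array. Without source water replicate 3 the difference was -0.03. Irs2 had a mean of 6.15, near the median of 5.83 over all probe sets, where differences on the log2 scale can be understated.

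Foxo1 encodes the forkhead factor that AKT phosphorylates and removes from the nucleus, so that its transcript is not a measure of its activity. Its signals were 8.59, 8.09 and 8.82 in source water, against 8.83, 9.13 and 8.78 in control. Source water replicate 2 was the lowest array and control replicate 2 the highest, while source water replicate 3 lay within the control range. The mean was 8.50 ± 0.37 in source water and 8.91 ± 0.19 in control (SD, n = 3 each), a difference of -0.41 ± 0.19 (SE; 95% interval -0.86 to 0.03; limma adjusted p = 0.878). The other 3 of its 4 probe sets were also lower, by -0.28, -0.24 and -0.21, and these probe sets read the same RNA. Without source water replicate 2 the difference was -0.21, and without source water replicate 3 it was -0.58.

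Ppargc1a encodes PGC-1alpha, the coactivator that fasting and glucagon induce in liver. It gave 5.49, 5.40 and 6.16 in source water, against 6.58, 5.60 and 5.85 in control. Control replicate 1 was well above the other control arrays, and source water replicate 3 lay between it and the rest. The difference was -0.33 ± 0.28 (SE; limma adjusted p = 0.999), and -0.04 without control replicate 1. Without source water replicate 3 it was -0.56. All 5 probe sets of the gene were lower in mean, by -0.66 to -0.29, again on the same RNA, and in each of them the groups overlapped. Its mean level of 5.85 is near the median of all probe sets.

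Pyruvate carboxylase, encoded by Pcx, makes oxaloacetate in mitochondria, the entry step of gluconeogenesis from pyruvate. Pcx had 12.06, 11.74 and 11.79 in source water, against 11.76, 11.73 and 11.54 in control. Source water replicate 1 was highest and control replicate 3 lowest, and the remaining arrays lay within a narrow band. The difference was 0.19 ± 0.13 (SE; limma adjusted p = 0.988), with a 95% interval of 0.927 to 1.39 as a fold. It was 0.09 without source water replicate 1 and 0.12 without control replicate 3. The array also carries 4 control probe sets along the Pcx transcript, which entered no test. Their mean differences were 0.15 at the 3' end, 0.14 at the 5' end, and 0.07 and 0.09 in between. Their signal levels were unlike, with means in the control group of 11.37 at the 3' end, 6.57 at the 5' end, and 7.05 and 7.86 in between. The 3' control probe set had 11.73, 11.46 and 11.36 in source water, against 11.34, 11.57 and 11.20 in control, so the groups overlapped there too.

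Pck1 encodes the cytosolic phosphoenolpyruvate carboxykinase, which turns oxaloacetate into phosphoenolpyruvate. Its signals were 13.38, 12.37 and 13.24 in source water, against 13.46, 13.24 and 13.29 in control. A single array, source water replicate 2, stood 0.87 below the next, and the other 5 arrays lay close together. The mean was 13.00 ± 0.54 in source water and 13.33 ± 0.12 in control (SD, n = 3 each), a difference of -0.33 ± 0.24 (SE; limma adjusted p = 0.999). Without source water replicate 2 the difference was -0.02, and without source water replicate 1 it was -0.52. A second Pck1 probe set, with a dim mean signal of 3.94, differed by -0.13.

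Fbp1 encodes fructose-1,6-bisphosphatase, a regulated step further along the pathway. It had 14.09, 13.89 and 13.98 in source water, against 13.88, 13.93 and 13.88 in control. All 6 arrays lay within 0.21 of each other, the narrowest range of the 10 genes. The difference was 0.09 ± 0.10 (SE; limma adjusted p = 0.999), with a 95% interval of 0.903 to 1.25 as a fold. Leaving out 1 source water array gave 0.04 (replicate 1) or 0.14 (replicate 2). Fbp1 was among the brightest probe sets on the array, where signal can be compressed.

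G6pc encodes the catalytic subunit of glucose-6-phosphatase, the last step of both gluconeogenesis and glycogen breakdown before glucose leaves the cell. It showed the largest difference in mean of the 10 genes and the largest spread. Its signals were 11.20, 9.89 and 10.34 in source water, against 10.69, 9.27 and 9.59 in control. Replicate 1 was the highest array and replicate 2 the lowest within each group, and control replicate 1 lay above source water replicates 2 and 3. The mean was 10.48 ± 0.67 in source water and 9.85 ± 0.74 in control (SD, n = 3 each), a 1.55-fold difference (log2 0.63 ± 0.41, SE; limma adjusted p = 0.979). Its 95% interval, as a fold, ran from 0.799 to 2.99. Leaving out control replicate 1 gave a difference of 1.04, leaving out control replicate 2 gave 0.34, and leaving out source water replicate 1 gave 0.27.

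Gys2 encodes the liver form of glycogen synthase. It had 10.31, 9.76 and 10.03 in source water, against 10.58, 10.41 and 10.24 in control. The groups overlapped only in that source water replicate 1 lay above control replicate 3. The mean was 10.04 ± 0.28 in source water and 10.41 ± 0.17 in control (SD, n = 3 each), a difference of -0.38 ± 0.16 (SE), or 0.771-fold, with a 95% interval of -0.75 to -0.005 and a limma adjusted p of 0.818. The difference was -0.24 without source water replicate 2. Its unadjusted p stayed under 0.05 without source water replicate 1 or control replicate 3, and not when any of the other 4 arrays was left out.

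Pygl encodes the liver glycogen phosphorylase, which acts against Gys2. Its signals were 11.17, 11.61 and 11.43 in source water, against 11.14, 11.21 and 11.13 in control. The control arrays were almost level, and source water replicate 1 lay among them while the other two source water arrays lay above. The difference was 0.24 ± 0.13 (SE; limma adjusted p = 0.949), with a 95% interval of 0.957 to 1.46 as a fold, and it was 0.14 without source water replicate 2. In the authors' deposited table, Pygl had a p-value of 0.0480 and a fold change of 1.18, and was the only one of the 10 genes with a p-value under 0.05. The other probe sets of these genes had p-values of 0.123 to 0.564 in the authors' deposited table, where Gys2 had 0.166.

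The 95% intervals differ in what they leave possible. For 3 of the 10 genes, Fbp1, Pcx and Pygl, the interval lay inside 1.5-fold in either direction. For the other 7 it did not, and for G6pc, Irs2 and Ppargc1a it reached 0.799- to 2.99-fold, 0.525- to 1.36-fold and 0.509- to 1.25-fold.

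Within a group, the arrays differed from each other in several genes at once. Source water replicate 2 was the lowest of the 6 arrays for 4 genes, Pck1, Ppargc1a, Foxo1 and Gys2, and the highest for Pygl. Its deviations from the mean of the 6 arrays were -0.79 for Pck1, -0.62 for Foxo1, -0.46 for Gys2, -0.45 for Ppargc1a and 0.33 for Pygl. Control replicate 1 was the highest for 4 genes, Pck1, Ppargc1a, Irs2 and Gys2, at 0.30, 0.74, 0.79 and 0.35. Source water replicate 1 was the highest for G6pc, Fbp1 and Pcx, at 1.04, 0.15 and 0.29. The lower mean of Pck1 in source water thus lay in source water replicate 2, and that of Ppargc1a lay largely in control replicate 1. For Irs2 it lay in control replicate 1 (0.79) and source water replicate 3 (-0.55), and leaving out either array left little of it. G6pc and Pck1 had the same order of arrays within each group, replicate 1 highest and replicate 2 lowest, but not across the groups: control replicate 2 was the lowest of all arrays for G6pc at -0.89, and stood at 0.08 for Pck1, whose lowest array was source water replicate 2.

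**Figure D3:**
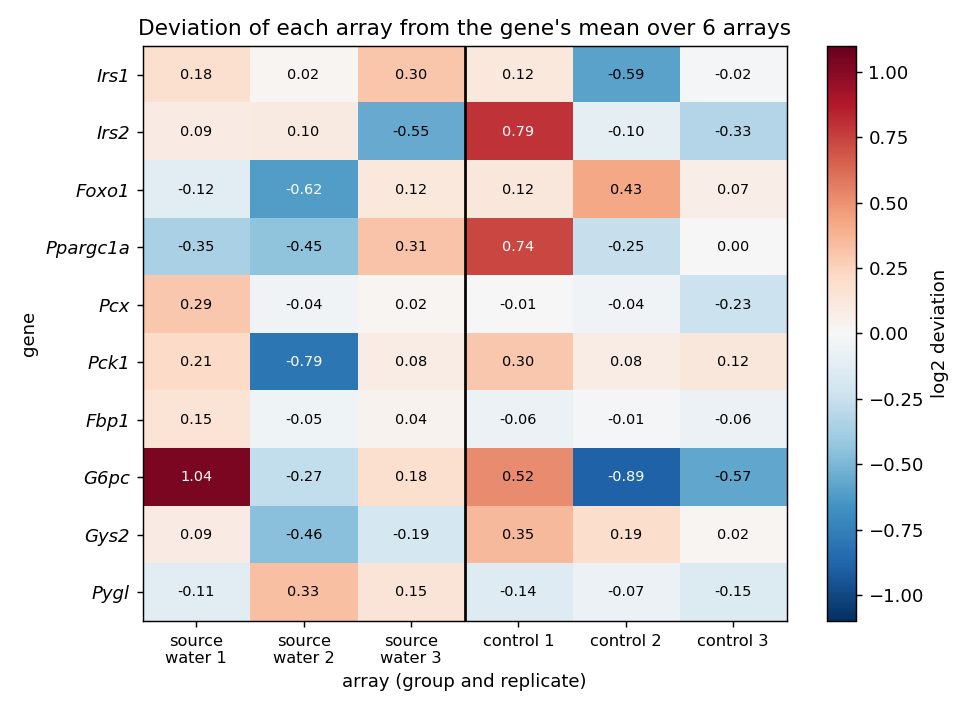
Deviation of each array from the gene's mean over the 6 arrays, in log2 units, for the 10 genes (rows), with source water arrays left of the line and control arrays right of it. Source water replicate 2 is low for Pck1 (-0.79), Foxo1 (-0.62) and Gys2 (-0.46), and control replicate 1 is high for Irs2 (0.79) and Ppargc1a (0.74).

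Beyond the 10 genes, 164 further genes of the same pathways were measured, in 7 lists. At an adjusted p under 0.05, 0 were called. At an unadjusted p under 0.05 there were 27, or 16.5%, of which 16 were higher and 11 lower, against 6.76% of all genes and 10.4% of genes with a mean log2 signal of at least 6. Their median difference was -0.00, as over all genes. The groups did not overlap in 30 of them, or 18.3%, against 11.5% of all genes and 15.3% of genes with a mean of at least 6. The lists were chosen with results of these arrays known, and nothing is called particular to them. Where a list held genes with groups apart and a difference of at least 1.5-fold, genes were named from among those. The separation of such genes was thus fixed by the choice and is not a finding.

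Of 21 enzymes and carriers that feed gluconeogenesis, 4 were higher and 17 lower by sign with a median of -0.10, against 6257 lower of all 12393 genes. An unadjusted p under 0.05 was found for 6, against 6.76% of all genes (4.16% higher and 2.6% lower). Of these, 3 were higher and 3 lower, so no direction is claimed for the list. Slc16a1, the monocarboxylate transporter MCT1 that carries lactate and pyruvate, had 9.93, 9.74 and 9.98 in source water, against 9.10, 8.47 and 8.48 in control. The lowest source water value exceeded the highest control value, as the rule for naming it required. The difference was 1.20 ± 0.18 (SE; limma adjusted p = 0.0800). Of 21 glycogen genes, 7 were higher and 14 lower, with a median of -0.04, and 3 had an unadjusted p under 0.05, all higher. Stbd1, a glycogen-binding protein linked to the delivery of glycogen to lysosomes, had 11.25, 11.38 and 11.41 in source water, against 10.55, 10.70 and 10.68 in control. The groups did not overlap, which the rule for naming it required, and the difference was 0.70 ± 0.11 (SE; limma adjusted p = 0.0800). Ppp1r3c, which targets protein phosphatase 1 to glycogen and favours synthesis, differed by 0.88 ± 0.22 (SE; limma adjusted p = 0.378), although its second, dimmer probe set differed by 0.20.

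Among 23 genes from the insulin receptor to AKT, 13 were higher and 10 lower with a median of 0.01. An unadjusted p under 0.05 was found for 1, against 6.76% of all genes. That gene, the adaptor Grb2, differed by 0.35 ± 0.10 (SE; limma adjusted p = 0.426), while its other probe set differed by -0.15. The mean of both differed by 0.10, and the list then had 0 genes with an unadjusted p under 0.05. Of 20 genes listed as brakes on insulin signalling, 14 were higher and 6 lower with a median of 0.05. An unadjusted p under 0.05 was found for 3, 2 higher and 1 lower. The list also held the adaptors Sh2b1 (0.04) and Sh2b2 (-0.29), which are not plain brakes. Trib3, a pseudokinase reported to bind AKT and also a target of ATF4, had 8.29, 7.66 and 8.59 in source water, against 7.57, 6.76 and 6.55 in control. The groups did not overlap, which the rule for naming it required, and the difference was 1.22 ± 0.31 (SE; limma adjusted p = 0.373).

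Genes of glucagon, cyclic AMP and gluconeogenic transcription were evenly divided, 19 higher and 18 lower of 37 with a median of 0.00. An unadjusted p under 0.05 was found for 7, 2 higher and 5 lower, against 6.76% of all genes (4.16% higher and 2.6% lower). Crem, a cyclic AMP responsive modulator, differed by 0.50 ± 0.16 (SE; limma adjusted p = 0.573), and by 0.33 without control replicate 2. Without control replicate 1 Crem differed by 0.63. Its other probe sets differed by 0.54 and 0.13. Of 22 FOXO1 and fasting targets outside the 10 genes, 14 were higher and 8 lower with a median of 0.08, and 5 had an unadjusted p under 0.05, 4 higher and 1 lower. The lower gene was Nampt, the rate-limiting enzyme of NAD salvage, which had 7.19, 8.20 and 8.22 in source water, against 9.08, 8.48 and 9.04 in control, a difference of -0.997 ± 0.290 (SE; limma adjusted p = 0.496). Source water replicate 1 was the lowest array, and without it Nampt differed by -0.66. Without control replicate 2 Nampt differed by -1.19. Of 23 genes of glucose uptake and glycolysis, 12 were higher and 11 lower with a median of 0.00, and 3 had an unadjusted p under 0.05, 2 higher and 1 lower. Pfkfb3, which makes the glycolytic activator fructose-2,6-bisphosphate, had 7.17, 6.31 and 7.49 in source water, against 6.05, 6.10 and 6.03 in control. Its difference was 0.93 ± 0.26 (SE; limma adjusted p = 0.469), and its second probe set differed by 0.06.

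**Figure D4:**
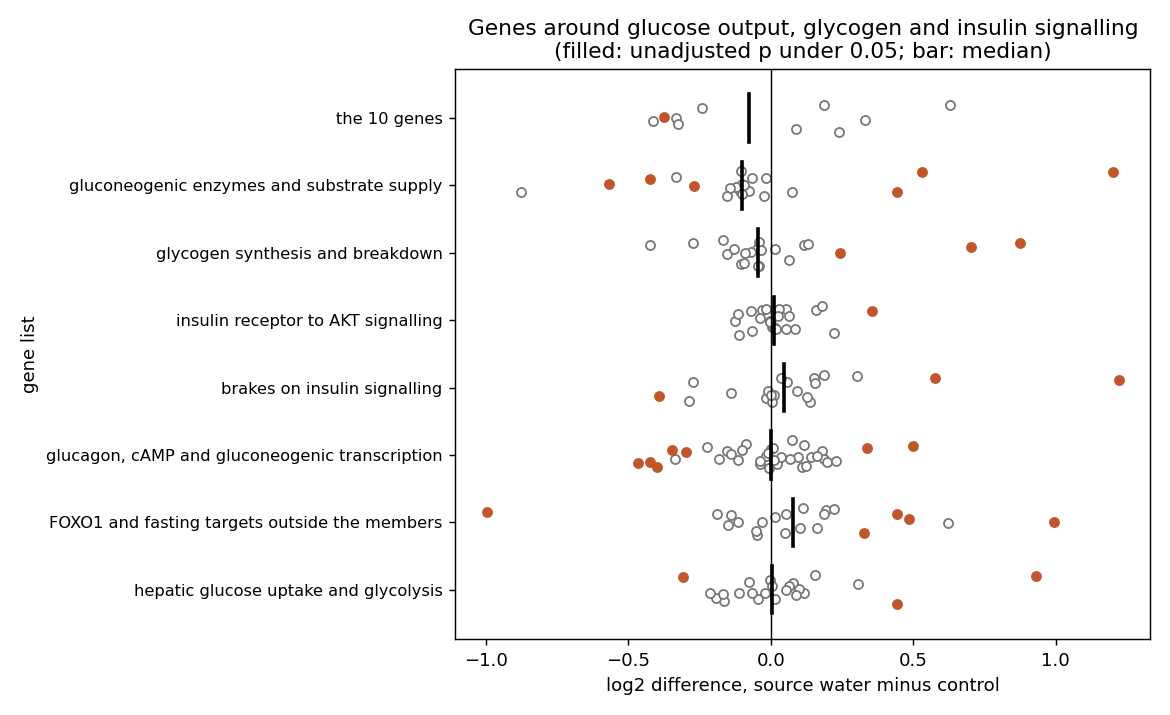
Log2 difference, source water minus control, of the 10 genes and of the measured genes of 7 pathway lists, 1 point per gene. Filled points have an unadjusted p under 0.05 and bars mark the median of a list. Medians lie between -0.10 and 0.08, and Slc16a1 (1.20) and Trib3 (1.22) lie farthest to the right.

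Hepatocyte markers had means of 12.16 to 14.91, and their summed signal was 17.31 to 17.44 in source water and 17.37 to 17.45 in control (log2), so the label of liver held. Of 9 macrophage markers 7 were higher in mean and 0 had an unadjusted p under 0.05, against 6.76% of all genes. Their summed signal was 13.05 to 13.61 in source water and 12.85 to 13.64 in control. Of 7 stellate markers 2 had an unadjusted p under 0.05, in opposite directions (Col3a1 at 1.33 and Lrat at -0.27), with a summed signal of 11.51 to 11.75 in source water and 11.06 to 11.57 in control. Of 7 endothelial markers 4 were higher in mean and 1, Stab2 at 0.39, had an unadjusted p under 0.05. Of 4 neutrophil markers, with means of 4.53 to 6.68, 2 were higher and 0 had such a p. All 4 pancreatic markers were higher in mean and 0 had such a p. Of these, Cela1 was bright at 10.55, while Ins2, Cpa1 and Gcg had means of 6.38, 4.41 and 3.51. Markers of bile duct, lymphocytes, adipose tissue and skeletal muscle had means of 3.79 to 5.92, near or below the median of all probe sets. In bulk liver, fewer cells of a type and less RNA per cell cannot be told apart, and the part of cell make-up in the values of the 10 genes was not tested.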

How the data were processed

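Total RNA of pooled livers was measured on 6 single-colour Affymetrix mouse arrays, 1 per pool. The authors deposited log2 signals per probe set, and RMA and Partek are named, per the submitters' processing notes, without versions or settings. They also deposited a comparison table of p-values, ratios and signed fold changes (a score, negative where lower), made by a test not given in the sources used here. That table is quoted only as the authors'. Its group means of log2 signal were deposited too.

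The table held 22690 probe sets; 64 of them are array controls and entered no test. The other 22626 were fitted in R 4.3.3 with the lmFit and eBayes functions of limma 3.58.1 (no covariate, Benjamini-Hochberg over all, adjusted p threshold 0.05, source water minus control). Symbols came from the platform annotation, with 20380 probe sets carrying 1 symbol, 691 several and 1555 none, and 20351 matched RefSeq by Entrez identifier with 0 symbols changed. A gene was represented by its probe set of highest mean. The fit was tested on simulated data with known changes. Array files carry no read depth, and the number of arrays limits the precision. From each list were named up to 3 genes of smallest p with groups apart and at least 1.5-fold, or else the gene of smallest p. The 10 genes, the lists and the tests were chosen with earlier results of these data known. Whether replicates came from separately housed mice was not given, so p-values measure only the spread between these pools. Alternatives were a replicate block, 2 normalizations, 2 filters, 2 variance models, averaging over the probe sets of each gene, and omission of single arrays.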

Additional observations from a re-analysis of the deposited data

How the results depend on the processing

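None of the 10 genes passed the adjusted threshold under any alternative that was run. Of 139 values of their differences under alternatives, 138 kept their direction, and the exception was Irs2, at 0.09 without control replicate 1 (range -0.466 to 0.0936 over the arrays left out). Against 1 gene with an unadjusted p under 0.05, the replicate block gave 3 (G6pc, Irs1 and Gys2), where 992 of 12393 genes had such a p, and centring on array medians, either filter on dim probe sets and the unmoderated statistic gave 0, where 6.27% to 9.92% of genes had one. Leaving out 1 array gave 0 to 2, where 5.34% to 7.33% did. Ppargc1a fell outside the filter on means of at least 6. Over all probe sets, the count past the adjusted threshold was 9, against 45 with the replicate block, 30 after repeated quantile normalization, 35 with limma-trend and 0 with the unmoderated statistic, and 0 to 14 with 1 array left out. The 1.5-fold rule held for 337 probe sets and for 213 with the unmoderated statistic. The deviations of arrays with the same number correlated at -0.07, 0.28 and 0.17, and not every array correlated best with its own number. The largest value was 0.43, between source water replicate 3 and control replicate 1. Source water replicate 1 correlated best with control replicate 2, at 0.27. The labels do not say whether the numbers pair the pools. These correlations cannot decide it, because deviations from a group mean cancel out within the group. The block left G6pc at an adjusted p of 0.145. Slc16a1 passed with limma-trend (adjusted p 0.0450) and repeated quantile normalization (0.0497), and Stbd1 with limma-trend (0.0366). The cause of these changes was not tested. With the mean of its probe sets, Grb2 differed by 0.10, Pfkfb3 by 0.49 and Ppp1r3c by 0.54.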
